A study of Homo sapiens with 15 samples.

Results

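The genes described here are 57 genes of mitosis in 293T cells: the kinases and cyclins that start it, the spindle checkpoint, the kinetochore, the mitotic kinesins and other spindle proteins, the chromosomal passenger complex with cytokinesis factors, and the proteins that shape the chromosomes. They were chosen by function, by name, with earlier results of these data known. All 57 have a row among the 19966 genes of the table. Transcripts were measured by mRNA sequencing in 293T, a cell line from human embryonic kidney into which SV40 large T antigen was brought, in 3 groups of 3 libraries: cells with SRSF1 knocked down by a short hairpin RNA and held 12 h without serum, wild-type cells held 12 h without serum, and wild-type cells kept in serum. They are called knockdown, starved and fed cells below. The series has 15 samples in 5 groups and was set up to ask whether loss of SRSF1, a splicing factor of the SR family, eases the block of proliferation that stress on ribosomes brings; the 6 samples with SRPK1 or UPF1 knocked down were not analysed here. The labels name no library with a non-targeting hairpin, so the hairpin against SRSF1 and the presence of any hairpin cannot be told apart. They also do not say whether the 3 libraries of a group come from separate cultures, so p-values measure the spread between these libraries, which may be technical.

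Mitosis begins when CDK1, bound to cyclin A or B and switched on by CDC25 phosphatases, phosphorylates many proteins at once. Chromosomes condense, the spindle attaches to them at kinetochores, and the checkpoint holds the anaphase-promoting complex back until every kinetochore is attached; separase then cuts the cohesin that holds sister chromatids together. Most of these genes are transcribed in G2 and M phase, from promoters that are bound by MuvB complexes at a short element called CHR (cell cycle genes homology region) and by NF-Y at CCAAT boxes. FOXM1 joins the MuvB complex in G2, and with RBL1 or RBL2 in its place the same complex represses the genes in resting cells. In 293T cells large T antigen binds the RB family of proteins, which includes RBL1 and RBL2.

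Libraries held 11775367 to 15231651 reads in genes, and 15166 to 15720 genes had at least 1 read. Levels are given as FPKM, reads per kilobase of gene scaled to a library of common size, computed from the deposited normalized counts. SRSF1 itself had 30.5, 31.3 and 30.4 FPKM in knockdown cells, against 42.6, 40.7 and 40.9 FPKM in starved cells and 33.0, 31.7 and 31.5 FPKM in fed cells. The knockdown libraries were thus below all starved libraries (log2 difference -0.42 ± 0.07, adjusted p = 0.000997) but at about the level of fed cells (-0.06, adjusted p = 0.590). Of 9 genes known from the line 7 passed the filter on low values, and their summed level was 145 to 180 FPKM in knockdown, 81.6 to 93.8 in starved and 124 to 140 in fed libraries. Of 13 genes that mark other cell types 3 passed it, the T cell marker CD3E was at 0 in every library, and the sum of the list was 7.19 to 8.74, 5.74 to 5.84 and 6.28 to 7.13 FPKM in knockdown, starved and fed libraries. Both sums move with the groups, and their part in the results was not tested. Knockdown 3 and starved 2 stood apart from their groups. The counts of knockdown 3 differed from those of the other knockdown libraries with a chi-square of 32.4 and 45.3 per degree of freedom, against 6.65 between those libraries, and its mitochondrial share of 5.56% compared with 3.52% and 3.75%. Starved 2 differed from the other starved libraries with 19.6 and 20.4, against 6.98 between those.

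Differences are of log2(FPKM + 1), which understates the change of low genes, and ± after a log2 difference is its standard error (SE, 3 libraries in each group). A gene is called higher or lower at an adjusted p under 0.05 in limma, a linear model fitted over all 11123 genes with at least 1 FPKM in 3 libraries. Of the 57 mitosis genes 55 were tested. PRC1, which cross-links the microtubules of the central spindle, reached at most 0.397 FPKM, and NUSAP1, a spindle protein that bundles microtubules, at most 0.205 FPKM. Each shares exon bases on the same strand with a second annotated gene, 3181 bases for PRC1 and 1787 for NUSAP1. The gene that overlaps PRC1 (ENSG00000284946) was listed at 2.35 to 3.66 FPKM and the one that overlaps NUSAP1 (ENSG00000285920) at 0; how reads were divided between them was not tested. In all, 15 of the 57 genes share exon bases with another annotated gene, and whether the counting used strand is not given in the sources used here.

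Promoter sequences from RefSeq (GRCh38.p14), 250 bases before to 50 after the gene start that RefSeq gives, were at hand for 49 of the 57 genes. The CHR element, searched as TTTGAA or TTCGAA on both strands, was in 35 of the 49 (71.4%), against 16.6% of 27305 promoters of all genes. CCAAT, on both strands, was in 34 (69.4%), against 35.7%, and both motifs together in 26 (53.1%), against 6.58%. A match describes letters in a window and shows no binding. The 5 promoters below are examples: PLK1, ESPL1, KIF11 and NEK2 were among the genes lower in starved than in fed cells, and CENPE had the largest fall in knockdown cells. Each runs from 170 bases before to 30 after the RefSeq start, 5′ to 3′ on the gene's strand, and capitals mark the CHR (TTTGAA, or TTCAAA as its complement) and CCAAT (or ATTGG as its complement).
PLK1, chr16:23678719-23678918, plus strand: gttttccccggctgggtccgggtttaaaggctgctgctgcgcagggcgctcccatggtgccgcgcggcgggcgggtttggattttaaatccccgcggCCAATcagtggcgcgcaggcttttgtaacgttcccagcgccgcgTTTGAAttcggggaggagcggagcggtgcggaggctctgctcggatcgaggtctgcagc
ESPL1, chr12:53268129-53268328, plus strand: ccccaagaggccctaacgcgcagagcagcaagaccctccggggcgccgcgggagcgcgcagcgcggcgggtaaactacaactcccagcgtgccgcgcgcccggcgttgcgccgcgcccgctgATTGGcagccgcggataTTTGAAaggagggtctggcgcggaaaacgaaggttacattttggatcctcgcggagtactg
KIF11, chr10:92592960-92593159, plus strand: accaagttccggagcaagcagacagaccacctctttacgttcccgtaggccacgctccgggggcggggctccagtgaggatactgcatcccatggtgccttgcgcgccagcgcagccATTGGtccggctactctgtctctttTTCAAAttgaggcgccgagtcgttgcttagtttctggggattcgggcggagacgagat
NEK2, chr1:211675592-211675791, minus strand: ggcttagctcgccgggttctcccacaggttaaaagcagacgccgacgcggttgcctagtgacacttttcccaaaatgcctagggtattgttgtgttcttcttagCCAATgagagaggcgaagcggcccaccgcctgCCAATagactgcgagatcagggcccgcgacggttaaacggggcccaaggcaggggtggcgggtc
CENPE, chr4:103198314-103198513, minus strand: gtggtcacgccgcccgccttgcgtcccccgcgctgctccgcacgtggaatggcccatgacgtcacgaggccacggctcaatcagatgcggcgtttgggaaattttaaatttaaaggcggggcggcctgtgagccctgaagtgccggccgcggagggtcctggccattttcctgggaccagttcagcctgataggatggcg
PLK1, ESPL1 and KIF11 share one arrangement, a CCAAT box 73, 48 and 53 bases before the start followed by a CHR element at 29, 31 and 28 bases before it. It is not particular to genes lower in starved cells. CCNB2, KIF4A and KIF23, called in no comparison, also have a CCAAT box followed by a CHR element before the start. CDK1 and CENPF, also lower in starved than in fed cells, lack the arrangement. In CDK1 the CHR element precedes the CCAAT box, and in CENPF it lies after the start. NEK2 has 2 CCAAT boxes and no CHR, and CENPE has neither in the window.

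In starved cells 7 mitosis genes were lower than in fed cells and 4 were higher. NEK2, a centrosome kinase, fell to 0.493 times its fed level, and CENPF, a large coiled-coil protein of the outer kinetochore, to 0.531 times. BIRC5, KIF11, ESPL1, PLK1 and CDK1 fell by smaller steps, with mean levels in starved cells of 0.677 to 0.773 times those in fed cells. CENPI, PLK4, UBE2C and BUB3 rose to 1.24 to 1.42 times. The cyclins CCNA2, CCNB1 and CCNB2, the Aurora kinases, CDC20, MKI67 and FOXM1 were not called. Of these, other settings called AURKB lower (adjusted p = 0.0310 with TPM, 0.0206 with quantile scaling and 0.0110 with GC and length trends removed) and CDC20 higher (0.0434 with edgeR and 0.0129 with those trends removed).

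The 11 calls are 20% of the 55 mitosis genes, against 42.8% of all genes tested in the same comparison. In all genes the calls were even, 21.5% higher and 21.3% lower. The median log2 difference of the mitosis genes was -0.06, against 0.03 over all genes, and their median absolute difference 0.14, against 0.26. None of the 55 changed 2-fold or more on this scale, against 3.6% of all genes. Adjusted p-values of the 11 lay between 1.80e-05 and 0.0399, and in 10 of the 11 the starved and fed libraries did not overlap; PLK4 is the exception. Regardless of calls, 7 genes had all starved libraries above all fed ones and 14 all below, where 59.2% of all genes did not overlap. By role, the calls fell on 4 of 11 kinases, cyclins and phosphatases, 3 of 9 checkpoint and anaphase genes, 2 of 8 kinetochore genes, 1 of 9 kinesins, 1 of 6 passenger complex and cytokinesis genes, and on no spindle or chromosome structure gene. Scaling bears on the direction: the split of 4 higher and 7 lower was 1 and 9 with TPM, 1 and 10 with each library's own total (a scaling added after seeing the data) and 2 and 11 with quantile scaling, where the median of all genes was -0.07, -0.05 and 0.02 in place of 0.03. In bulk RNA a smaller share of cells in mitosis and less RNA in each such cell cannot be told apart.

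NEK2, ESPL1, CENPF and CENPI were called in every setting tried. Leaving out 1 library ended the call of CDK1 (without starved 1 or 2 or any fed library, adjusted p = 0.0577 to 0.124), UBE2C (without the same libraries, 0.0651 to 0.124), PLK4 (without starved 1 or 3 or fed 2 or 3, 0.0776 to 0.0983), PLK1 (without starved 3 or fed 3, 0.0583 and 0.0598) and KIF11 (without fed 1, 0.0551). The higher calls also depended on scaling: BUB3 was not called with TPM, quantile scaling, edgeR or each library's own total (adjusted p = 0.1516, 0.1013, 0.0598 and 0.0678), PLK4 with the same settings (0.1488, 0.0666, 0.1022 and 0.0846), and UBE2C with TPM, TMM, edgeR or own totals (0.0681, 0.0514, 0.0854 and 0.0777). Without fed 3 the count was 7, and without starved 2, which stands apart, it was 10. These are 12.7% and 18.2% of the 55, where the same fits called 33% and 41.3% of all genes.

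Against starved cells, 6 mitosis genes were higher in knockdown cells and 10 were lower. PLK1 and NEK2 rose to 1.75 and 1.80 times their starved levels, BIRC5 to 1.53 times and ESPL1, which encodes separase, to 1.45 times, and CDC25C and KIF2C rose less. CENPE, the kinesin that carries chromosomes to the spindle equator, fell to 0.334 times. The spindle pole protein ASPM and the inner kinetochore subunit CENPI fell to 0.501 and 0.508 times, and CENPK, KIF14, PLK4, KIF18A, SMC2, BUB3 and UBE2C fell to between 0.564 and 0.787 times.

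These 16 calls are 29.1% of the 55, against 46.4% of all genes tested (22.5% higher, 23.9% lower). The median difference was -0.11 for the mitosis genes, against -0.04 over all genes, and the median absolute difference 0.17, against 0.28. Adjusted p-values lay between 4.79e-05 and 0.0443, and 14 of the 16 had no overlap between knockdown and starved libraries, ASPM and SMC2 being the exceptions. Whatever the call, 8 genes had all knockdown libraries above all starved ones and 10 all below, where 51% of all genes did not overlap. Calls fell on 3 higher and 1 lower of the kinases, cyclins and phosphatases, 1 higher and 2 lower of the checkpoint and anaphase genes, 3 lower kinetochore genes, 1 higher and 2 lower kinesins, 1 lower spindle gene, 1 higher passenger complex gene and 1 lower chromosome structure gene. The split of 6 higher and 10 lower was 6 and 8 with TPM, 8 and 9 with each library's own total and 9 and 9 with quantile scaling.

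NEK2, PLK1, ESPL1, BIRC5, CENPE, CENPI, CENPK, KIF18A, PLK4 and BUB3 were called in every setting tried. The call of CDC25C was lost on leaving out any one library but knockdown 1 (adjusted p = 0.0577 to 0.112), that of UBE2C without knockdown 1 or 3 or starved 1 or 2 (0.0555 to 0.0923), and those of ASPM, SMC2 and KIF2C without knockdown 2 or starved 1 or 3 (0.0797 to 0.09998, 0.0684 to 0.0852 and 0.0653 to 0.0976). The count was 21 without knockdown 3 and also 21 without starved 2, the libraries that stand apart. Each is 38.2% of the 55, where those fits called 49.7% and 45.9% of all genes. CDC25C and UBE2C were the only genes to lose their calls there.

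The 3 starved libraries stand in both of these first comparisons with opposite sign, so an error in the starved group enters both, in opposite directions. Side by side, PLK1 (-0.43 and 0.78), NEK2 (-0.96 and 0.79), ESPL1 (-0.45 and 0.50) and BIRC5 (-0.56 and 0.59) were lower in starved than in fed cells and higher in knockdown than in starved cells. PLK4 (0.46 and -0.66), CENPI (0.46 and -0.89), BUB3 (0.31 and -0.46) and UBE2C (0.34 and -0.34) were higher in starved than in fed cells and lower in knockdown than in starved cells. CDK1, CENPF and KIF11, also lower in starved than in fed cells, were not called between knockdown and starved cells (-0.31, 0.03 and 0.10).

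Set against cells that had serum, knockdown cells had 10 mitosis genes lower and 1 higher. Of the 8 kinetochore genes 5 were lower, CENPE at 0.301 times the fed level, CENPF at 0.538, CENPK at 0.553, NUF2 at 0.653 and CENPI at 0.718 times. Of 32 further kinetochore genes tested none was lower and 3 were higher (PMF1, CENPL and SKA1 at 0.40, 0.36 and 0.34), and how the 8 differ from the 32 was not tested. KIF20B (0.484 times), CDK1 (0.622), SMC2 (0.627), KIF18A (0.640) and TOP2A (0.669) were the other lower genes, and INCENP was higher at 1.27 times. PLK1, NEK2, ESPL1 and BIRC5 were not called (0.35, -0.17, 0.05 and 0.03, adjusted p = 0.0607, 0.178, 0.675 and 0.925).

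The 11 calls are 20% of the 55, against 18.5% of all genes tested. The lower ones are 10 of the 55, where 9.23% of all genes were lower and 9.27% higher. The median difference was -0.12 for the mitosis genes, against -0.01 over all genes, and the median absolute difference 0.19, against 0.18. All 11 called genes had no overlap between the groups, with adjusted p of 0.00452 to 0.0339. Over the 55 genes 18 had all knockdown libraries below all fed ones and 3 all above, where 41.1% of all genes did not overlap (21% below, 20.1% above). CDK1, CENPE and CENPK were called in every setting tried. The count dropped to 3, 5 and 7 without fed 1, 2 and 3, and to 7 without knockdown 2. It was 13 without knockdown 3 and 15 without starved 2. In this order these are 5.45%, 9.09%, 12.7%, 12.7%, 23.6% and 27.3% of the 55. The same fits called 7.65%, 8.94%, 9.49%, 13.6%, 22.1% and 21.7% of all genes, so calls fell and rose over all genes too. Calls lost without single libraries were those of SMC2 and KIF18A (without knockdown 1 or 2 or any fed library, adjusted p up to 0.0985 and 0.134), TOP2A (without knockdown 2 or any fed library, 0.0992), KIF20B (without knockdown 2 or fed 1 or 2, 0.101), INCENP (without any fed library, 0.1004), CENPF (without fed 1 or 2, 0.0734), CENPI (without fed 1, 0.0651) and NUF2 (without fed 1, 0.0503).

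**Figure D1:**
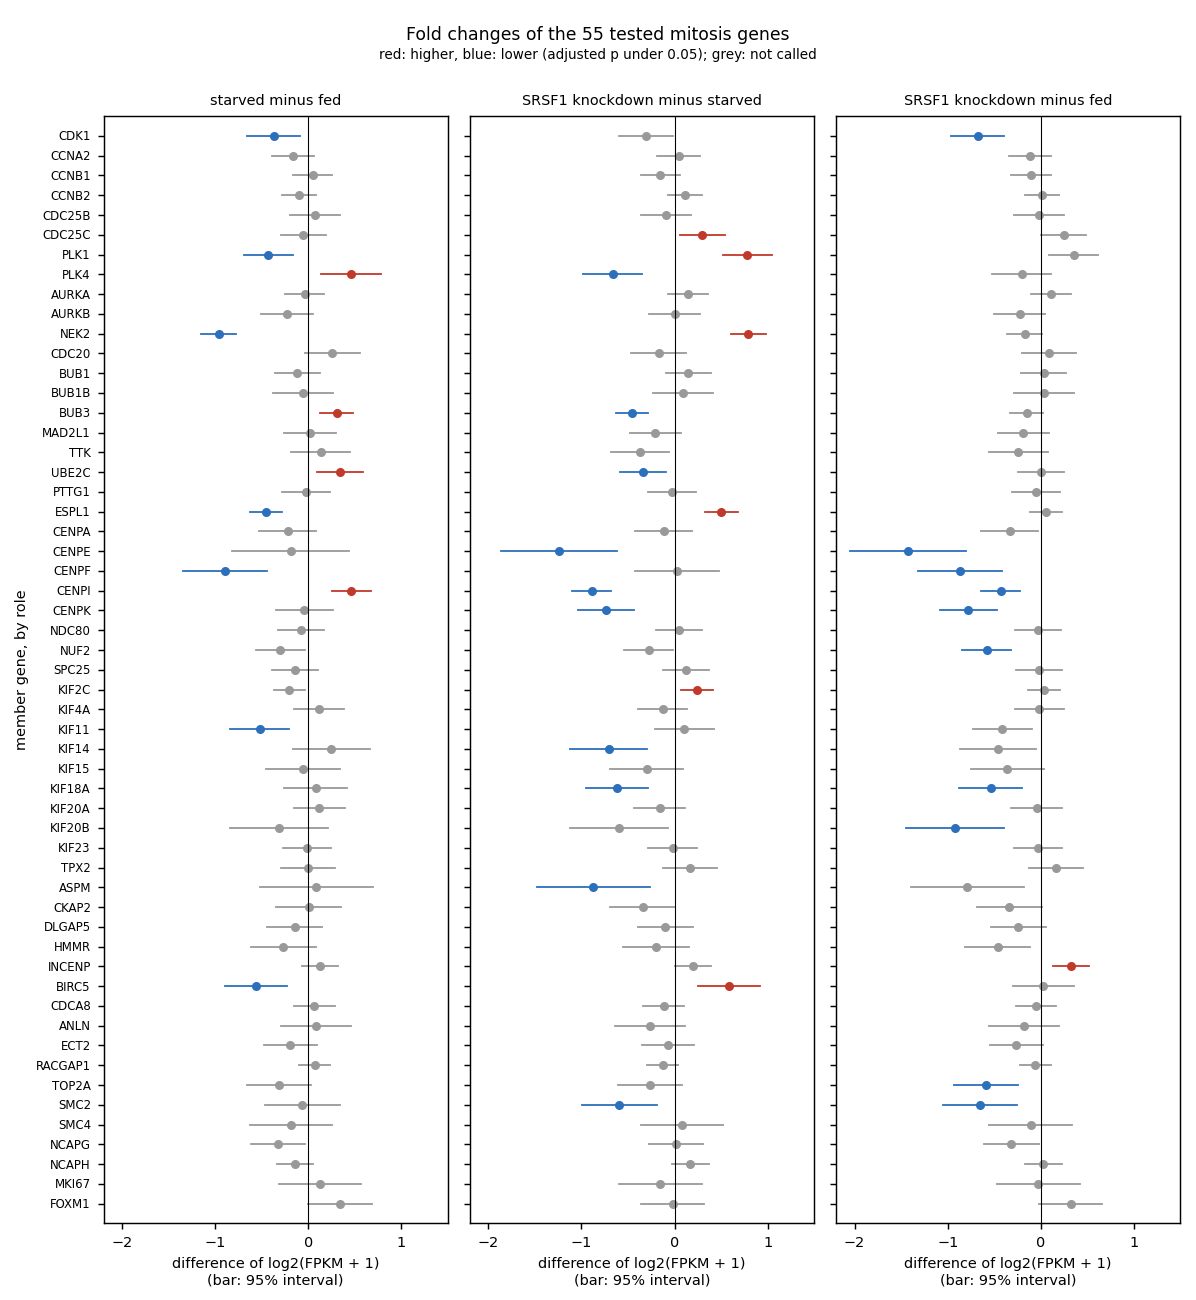
Difference of log2(FPKM + 1) for each of the 55 tested mitosis genes, ordered by role, in the 3 comparisons; points are estimates, bars 95% intervals, red marks genes called higher, blue genes called lower and grey genes not called. The 7 lower and 4 higher genes on starvation, the 6 higher and 10 lower genes in knockdown against starved cells, and the single higher gene against fed cells (INCENP) can be read off by name; CENPE and ASPM have the widest bars.

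**Figure D2:**
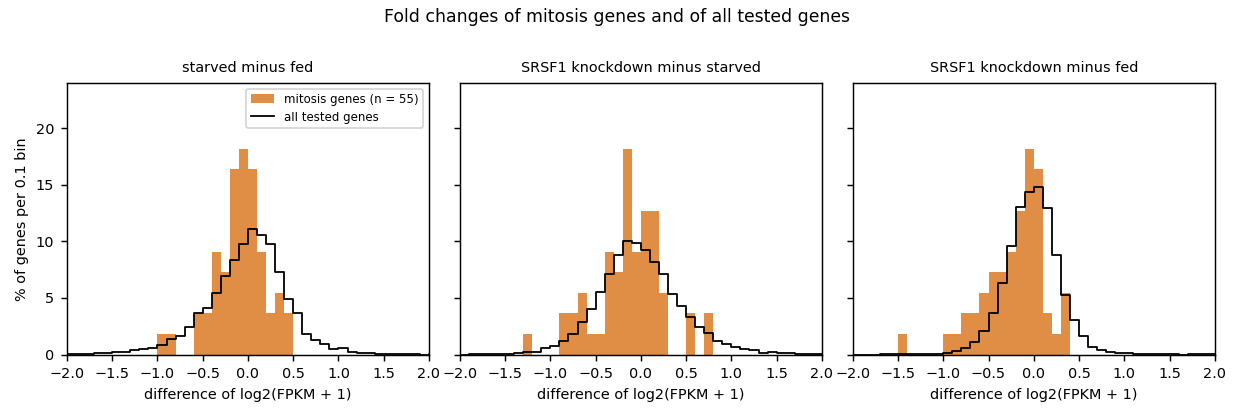
Share of genes (%) in each step of 0.1 of the log2 difference, for the 55 mitosis genes (bars) and for all 11123 tested genes (line), in the 3 comparisons. The bars are narrower than the line for starved against fed cells (median absolute difference 0.14 against 0.26) and lie to its left for knockdown against fed cells (median -0.12 against -0.01).

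Among the kinases that start mitosis, CDK1 (chr10:60778331-60794852, plus strand), the engine of mitotic entry, had 37.1, 36.3 and 28.0 FPKM in knockdown cells, 44.4, 35.2 and 46.4 in starved cells and 56.3, 54.7 and 52.1 in fed cells. All fed libraries were above all others, while knockdown and starved libraries overlapped. The difference was -0.68 ± 0.13 for knockdown against fed cells (adjusted p = 0.00667), -0.37 ± 0.13 for starved against fed cells (0.0399) and -0.31 ± 0.13 for knockdown against starved cells (0.0770). Its cyclin partners were not called. CCNB1 (cyclin B1) had 115, 115 and 99.7 FPKM in knockdown cells, 117, 128 and 121 in starved cells and 124, 112 and 118 in fed cells, and is one of the most abundant of these transcripts. CCNA2 (cyclin A2) had 54.4, 51.2 and 64.9 FPKM in knockdown cells, 54.7, 51.6 and 58.3 in starved cells and 59.6, 64.6 and 60.2 in fed cells. Neither cyclin was called in any comparison, with differences between -0.16 and 0.05, nor was CCNB2 (cyclin B2, -0.10, 0.11 and 0.01). CDC25C, a phosphatase that activates CDK1, had 9.85, 11.4 and 13.8 FPKM in knockdown cells, against 9.004, 9.126 and 9.499 in starved cells and 9.31, 9.22 and 10.3 in fed cells. The knockdown libraries lay above the starved ones (0.30 ± 0.11, adjusted p = 0.0443), knockdown 3 furthest. CDC25C shares 293 exon bases on the other strand with FAM53C, which had 18.9, 19.1 and 17.04 FPKM in knockdown cells, against 12.8, 14.5 and 14.0 FPKM in starved cells (0.39 ± 0.08, adjusted p = 0.00331). The part of FAM53C in the level of CDC25C was not tested. CDC25B, a sister phosphatase, was not called (0.08, -0.09 and -0.02).

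NEK2 (chr1:211658657-211675630, minus strand), which parts the centrosomes before the spindle forms, had the largest fall on starvation. Its level was 22.0, 18.7 and 22.2 FPKM in knockdown cells, 11.5, 11.4 and 12.1 in starved cells and 24.03, 23.8 and 23.2 in fed cells. The starved libraries were lowest and close to each other, the knockdown libraries lay just under the fed ones, and no groups overlapped. The difference was -0.96 ± 0.08 for starved against fed cells (adjusted p = 1.80e-05) and 0.79 ± 0.08 for knockdown against starved cells (5.15e-05). PLK1 (chr16:23677656-23690367, plus strand), a kinase needed for centrosome maturation, spindle assembly and cytokinesis, had 34.0, 40.4 and 43.3 FPKM in knockdown cells, 21.4, 25.7 and 20.2 in starved cells and 28.3, 30.4 and 32.7 in fed cells. Here the knockdown libraries were the highest, above every fed library. The difference was -0.43 ± 0.12 for starved against fed cells (adjusted p = 0.0138), 0.78 ± 0.12 for knockdown against starved cells (0.000439) and 0.35 ± 0.12 for knockdown against fed cells (0.0607).

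PLK4 (chr4:127880893-127899224, plus strand), the kinase that starts centriole duplication, went the other way from PLK1. It had 10.9, 10.1 and 11.9 FPKM in knockdown cells, 20.2, 13.8 and 20.5 in starved cells and 14.4, 12.3 and 11.7 in fed cells. Starved 1 and 3 were the high libraries, and starved 2 was below fed 1. The difference was 0.46 ± 0.14 for starved against fed cells (adjusted p = 0.0254) and -0.66 ± 0.14 for knockdown against starved cells (0.00365). AURKA, the Aurora kinase of the spindle poles, had 43.6, 43.5 and 52.4 FPKM in knockdown cells, 38.8, 43.4 and 43.2 in starved cells and 43.1, 41.6 and 44.1 in fed cells. AURKB, the Aurora kinase of the passenger complex, had 49.1, 55.5 and 40.9 FPKM in knockdown cells, 45.3, 53.0 and 46.5 in starved cells and 52.9, 53.6 and 63.8 in fed cells. Neither was called, and their differences lay between -0.23 and 0.15.

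**Figure D3:**
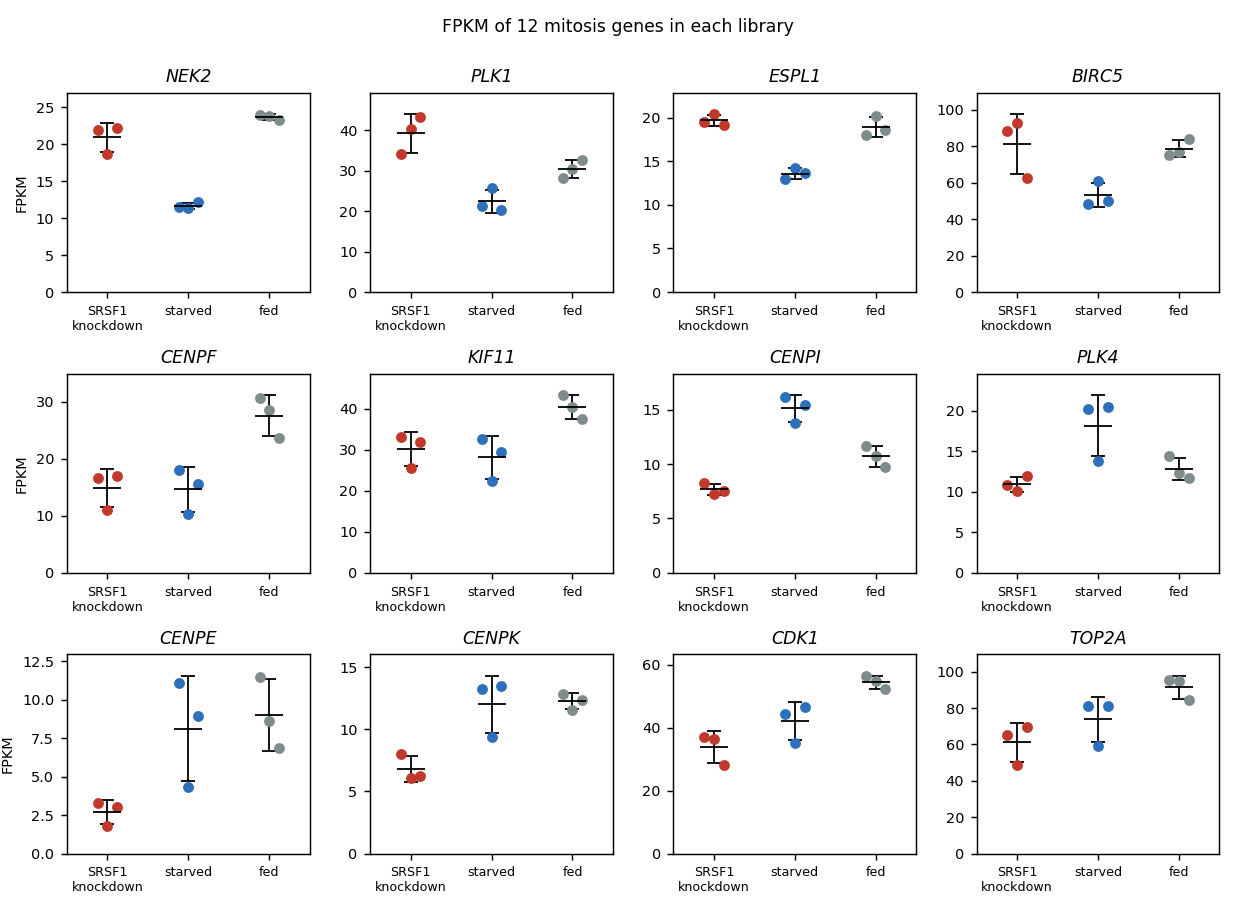
FPKM (vertical axes, from 0) of 12 mitosis genes in the knockdown, starved and fed libraries; points are libraries, the horizontal bar the mean and the whiskers 1 SD (n = 3). NEK2, PLK1, ESPL1 and BIRC5 have their lowest group in starved cells, CENPI and PLK4 their highest, CENPE and CENPK are lowest in knockdown cells, and CENPF, KIF11, CDK1 and TOP2A are highest in fed cells.

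In the spindle checkpoint and the step to anaphase, ESPL1 (separase, chr12:53268299-53293638, plus strand) had 19.4, 20.4 and 19.2 FPKM in knockdown cells, 12.96, 14.2 and 13.6 in starved cells and 18.0, 20.2 and 18.6 in fed cells. The starved libraries were the low ones, with knockdown and fed libraries overlapping. The difference was -0.45 ± 0.08 for starved against fed cells (adjusted p = 0.00109) and 0.50 ± 0.08 for knockdown against starved cells (0.000525). PTTG1, the securin that restrains separase, was not called (-0.02, -0.03 and -0.05). BUB3, a checkpoint subunit that binds BUB1 and BUB1B, had 29.8, 28.3 and 27.2 FPKM in knockdown cells, 41.3, 37.6 and 39.4 in starved cells and 33.4, 30.9 and 30.7 in fed cells. All starved libraries were highest (0.31 ± 0.08 for starved against fed cells, adjusted p = 0.0105) and all knockdown libraries lowest (-0.46 ± 0.08 against starved cells, 0.00105). Its partners BUB1 and BUB1B were not called in any comparison. BUB1 had 26.5, 25.8 and 33.5 FPKM in knockdown cells, 25.9, 23.2 and 27.6 in starved cells and 28.8, 28.3 and 26.4 in fed cells.

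UBE2C, the ubiquitin-conjugating enzyme of the anaphase-promoting complex, had 103, 113 and 99.5 FPKM in knockdown cells, 138, 148 and 115 in starved cells and 109, 98.2 and 108 in fed cells. Starved 3 was only just above the highest knockdown and fed libraries; the difference was 0.34 ± 0.11 for starved against fed cells (adjusted p = 0.0324) and -0.34 ± 0.11 for knockdown against starved cells (0.0311). CDC20, the activator of the same complex, had 110, 117 and 94.4 FPKM in knockdown cells, 102, 144 and 118 in starved cells and 95.8, 100 and 105 in fed cells. Starved 2 was its highest library, the groups overlapped and no comparison called it (0.26, -0.17 and 0.09). The checkpoint kinase TTK and the checkpoint protein MAD2L1 were not called either, although TTK came close in knockdown against starved cells (-0.37 ± 0.14, adjusted p = 0.0521).

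At the kinetochore, CENPE (chr4:103105349-103198445, minus strand) had 3.31, 1.83 and 3.01 FPKM in knockdown cells, 11.1, 4.35 and 8.96 in starved cells and 11.5, 8.62 and 6.90 in fed cells. Every knockdown library was below every other library, but the starved libraries were spread wide, with starved 2 the lowest of them. The difference was -1.24 ± 0.28 against starved cells (adjusted p = 0.00500) and -1.43 ± 0.28 against fed cells (0.00787), with -0.19 ± 0.28 for starved against fed cells (0.630). CENPE had the largest spread within groups of the 55 genes, an SD of 0.444 on the log2 scale, larger than in 98.8% of all genes tested. CENPI (chrX:101098188-101166126, plus strand) and CENPK belong to the inner kinetochore, which stays on the centromere through the cell cycle. CENPI had 8.21, 7.29 and 7.53 FPKM in knockdown cells, 16.1, 13.7 and 15.5 in starved cells and 11.6, 10.7 and 9.72 in fed cells. The 3 groups did not overlap, and starved cells were highest and knockdown cells lowest (0.46 ± 0.09, adjusted p = 0.00286, for starved against fed cells; -0.89 ± 0.09, 4.79e-05, for knockdown against starved cells; -0.43 ± 0.09, 0.0122, for knockdown against fed cells).

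CENPK (chr5:65517766-65563168, minus strand) had 7.99, 6.12 and 6.22 FPKM in knockdown cells, 13.2, 9.39 and 13.5 in starved cells and 12.9, 11.6 and 12.4 in fed cells. Knockdown libraries were below all others, and starved and fed libraries overlapped (-0.74 ± 0.14, adjusted p = 0.00162, against starved cells; -0.78 ± 0.14, 0.00452, against fed cells). CENPF (chr1:214603195-214664571, plus strand) had 16.6, 11.03 and 16.9 FPKM in knockdown cells, 18.0, 10.3 and 15.6 in starved cells and 30.6, 28.6 and 23.6 in fed cells. Fed libraries were above all others and the starved groups with and without knockdown lay together (-0.89 ± 0.20, adjusted p = 0.00534, for starved against fed cells; 0.03 ± 0.20, 0.922, for knockdown against starved cells). NUF2, a subunit of the NDC80 complex that binds microtubules, had 15.97, 14.2 and 15.1 FPKM in knockdown cells, 20.9, 15.1 and 19.96 in starved cells and 25.4, 22.3 and 21.6 in fed cells, and was called in knockdown against fed cells (-0.58 ± 0.12, adjusted p = 0.00946). Its partners NDC80 and SPC25 were not called and differed by -0.03 and -0.02 there. CENPA, the histone H3 variant of the centromere, was not called (-0.22, -0.11 and -0.33).

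Of the mitotic kinesins, KIF11 (Eg5, chr10:92574105-92655395, plus strand), which pushes the spindle poles apart, had 33.1, 25.5 and 31.9 FPKM in knockdown cells, 32.5, 22.3 and 29.5 in starved cells and 43.3, 40.4 and 37.4 in fed cells. Fed libraries were above all others (-0.52 ± 0.14, adjusted p = 0.0140, for starved against fed cells). Knockdown and starved cells overlapped (0.10 ± 0.14, 0.575). KIF15, which can stand in for KIF11, was not called (-0.06, -0.30 and -0.36). KIF14, a kinesin of cytokinesis, had 9.85, 6.13 and 8.67 FPKM in knockdown cells, 17.2, 10.7 and 14.3 in starved cells and 12.99, 11.9 and 9.83 in fed cells, and fell in knockdown cells relative to starved ones (-0.71 ± 0.19, adjusted p = 0.0102). KIF18A, which damps the swinging of chromosomes at the equator, had 4.23, 3.51 and 4.62 FPKM in knockdown cells, 7.83, 5.13 and 7.82 in starved cells and 7.26, 6.39 and 5.64 in fed cells. Its knockdown libraries were below all others (-0.62 ± 0.15, adjusted p = 0.00748, against starved cells; -0.54 ± 0.15, 0.0339, against fed cells). In fed cells KIF18A was the least abundant of the 55 genes.

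KIF2C (MCAK), which takes microtubules apart at their ends, had 26.5, 28.3 and 28.7 FPKM in knockdown cells, 23.3, 24.4 and 22.5 in starved cells and 27.7, 25.9 and 27.6 in fed cells. The knockdown libraries were above the starved ones by a small step (0.24 ± 0.08, adjusted p = 0.0257), and starved against fed cells was just short of the threshold (-0.20 ± 0.08, 0.0533). KIF20B had 5.74, 3.39 and 5.40 FPKM in knockdown cells, 9.85, 5.01 and 9.12 in starved cells and 11.9, 10.3 and 7.82 in fed cells, and was called against fed cells alone (-0.92 ± 0.24, adjusted p = 0.0246), with the difference from starved cells at -0.60 ± 0.24 (0.0600). KIF4A, KIF20A and KIF23, which act on the chromosomes or the central spindle, were not called, with differences of -0.16 to 0.12.

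Among the other spindle proteins ASPM, which focuses the spindle poles, was the one call. It had 8.73, 4.46 and 7.01 FPKM in knockdown cells, 17.3, 7.81 and 15.2 in starved cells and 14.0, 12.4 and 9.96 in fed cells. Starved 2 was below knockdown 1, so the groups overlapped although the mean difference was large (-0.87 ± 0.27, adjusted p = 0.0239, against starved cells; -0.79 ± 0.27, 0.0676, against fed cells). ASPM had the second largest spread within groups, an SD of 0.430 on the log2 scale. TPX2, the activator of AURKA, and CKAP2, DLGAP5 and HMMR were not called, with -0.46 ± 0.16 for HMMR in knockdown against fed cells (0.0656) the largest difference. The level of TPX2 in knockdown 3, 133 FPKM, stood above 92.2 and 95.7 in the other knockdown libraries.

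In the chromosomal passenger complex, BIRC5 (survivin, chr17:78214186-78225636, plus strand), which brings the complex to the centromere, had 88.2, 92.9 and 62.4 FPKM in knockdown cells, 48.5, 60.9 and 50.2 in starved cells and 75.0, 77.0 and 83.7 in fed cells. Starved libraries were lowest, and knockdown 3 was only just above starved 2 (-0.56 ± 0.15, adjusted p = 0.0120, for starved against fed cells; 0.59 ± 0.15, 0.00883, for knockdown against starved cells). INCENP, the scaffold of the complex, had 40.3, 39.8 and 47.9 FPKM in knockdown cells, 35.8, 38.3 and 36.6 in starved cells and 33.7, 33.4 and 34.1 in fed cells. Its 3 groups did not overlap, and it was called in knockdown against fed cells (0.33 ± 0.09, adjusted p = 0.0300). CDCA8 (borealin) was not called (0.06, -0.12 and -0.05), nor were the cytokinesis factors ANLN, ECT2 and RACGAP1, with differences of -0.26 to 0.08.

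Of the genes that shape chromosomes, TOP2A, which untangles DNA before anaphase, had 65.3, 48.9 and 69.4 FPKM in knockdown cells, 81.0, 59.2 and 81.1 in starved cells and 95.6, 94.7 and 84.2 in fed cells. Fed libraries were highest (-0.59 ± 0.16, adjusted p = 0.0274, for knockdown against fed cells; -0.32 ± 0.16, 0.123, for starved against fed cells). SMC2, a core subunit of condensin, had 13.9, 9.72 and 15.1 FPKM in knockdown cells, 22.97, 14.7 and 22.3 in starved cells and 20.9, 21.3 and 19.4 in fed cells. Starved 2 lay within the knockdown range (-0.59 ± 0.18, adjusted p = 0.0207, against starved cells; -0.65 ± 0.18, 0.0312, against fed cells). The condensin subunits SMC4, NCAPG and NCAPH, the partners of SMC2, were not called in any comparison; SMC4 and NCAPG share 1561 and 1631 exon bases with TRIM59 and LCORL on the other strand. MKI67, the Ki-67 protein that coats mitotic chromosomes, had 28.7, 25.4 and 49.0 FPKM in knockdown cells, 40.1, 32.0 and 38.7 in starved cells and 34.2, 35.8 and 31.1 in fed cells. Knockdown 3 was its highest library and knockdown 2 its lowest, and no comparison called it. Without knockdown 3, which stands apart, MKI67 was called lower in knockdown than in starved cells (-0.43, adjusted p = 0.00977), against -0.15 with all libraries.

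FOXM1, the transcription factor that drives many of these genes in G2, had 22.9, 24.98 and 37.8 FPKM in knockdown cells, 27.1, 30.6 and 27.3 in starved cells and 21.5, 22.4 and 22.5 in fed cells. Starved libraries were all above fed ones, but the call was missed (0.34 ± 0.15, adjusted p = 0.0983). At the same difference FOXM1 was called with only starved and fed libraries in the fit (adjusted p = 0.00523) and without knockdown 3 (0.00311), and with GC and length trends removed it was called at 0.37 (0.0488). Without knockdown 3 FOXM1 was also called lower in knockdown than in starved cells (-0.23, 0.0350), against -0.02 with all libraries. It shares 781 exon bases with ITFG2 on the other strand, which was listed at 1.82, 2.54 and 2.43 FPKM in knockdown cells, 5.41, 5.13 and 5.44 in starved cells and 2.64, 2.46 and 2.12 in fed cells. The part of ITFG2 in the level of FOXM1 was not tested.

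**Figure D4:**
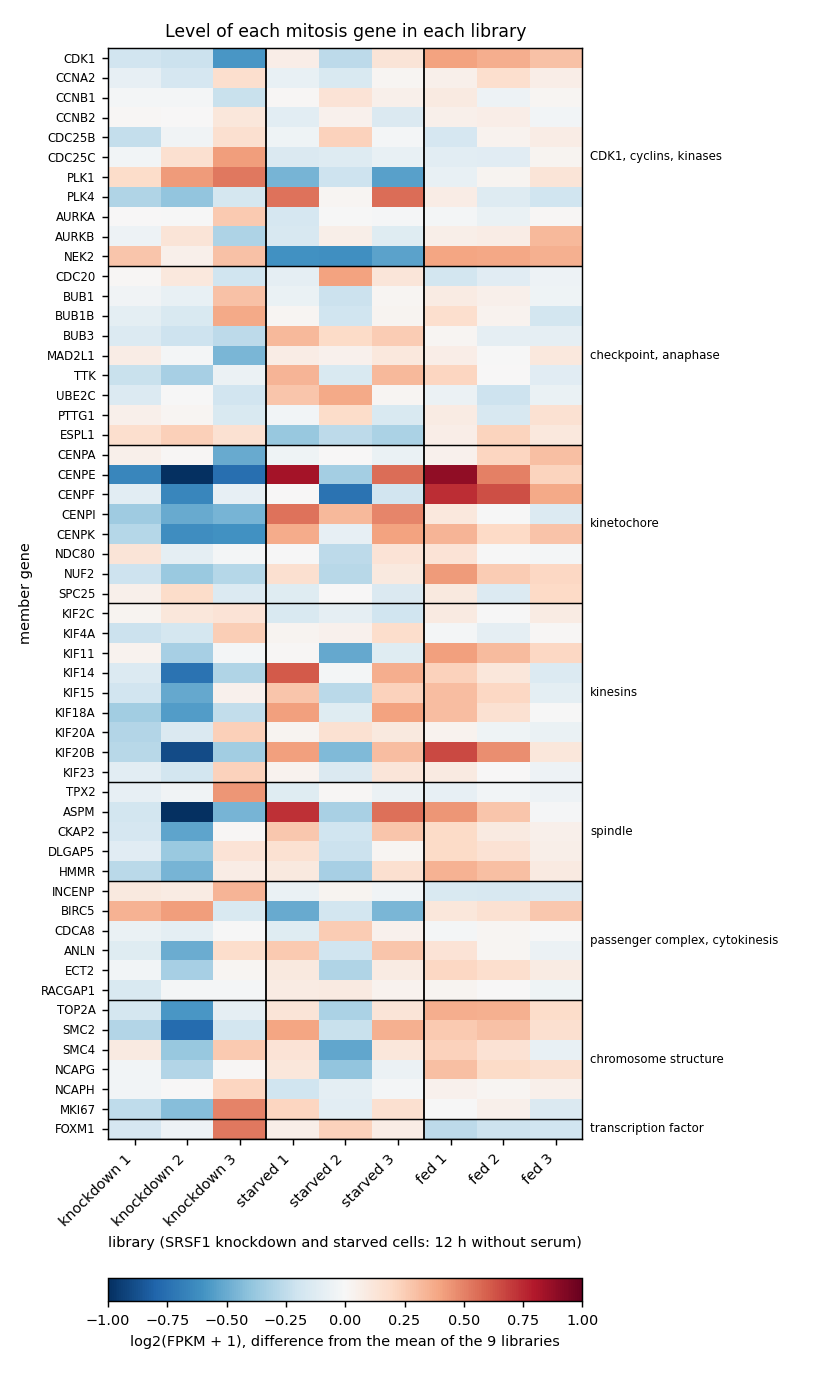
Level of the 55 tested mitosis genes (rows, by role) in the 9 libraries (columns), as log2(FPKM + 1) minus the mean of the 9 libraries, blue for lower and red for higher; values beyond -1 and 1 take the end colours. Knockdown 2 is the bluest column, the lowest library for 21 genes, and knockdown 3 is the highest library for 17; starved 2 differs from starved 1 and 3 in many rows.

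Across libraries the 55 genes moved partly together, and not only by group. Their median deviation from each gene's mean was -0.11, -0.16 and 0.00 in the knockdown libraries, 0.04, -0.13 and 0.07 in the starved libraries and 0.09, 0.05 and 0.03 in the fed libraries. By this median starved 2 was below the other starved libraries. The sum of FPKM over the genes was 1708, 1651 and 1802 in knockdown libraries, 1822, 1761 and 1822 in starved libraries and 1909, 1850 and 1844 in fed libraries. Knockdown 2 was the lowest library of 21 genes and knockdown 3 the highest of 17, and fed 1 the highest of 13. The median SD within groups was 0.172 on the log2 scale, against 0.134 over all genes tested.

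Base composition moved with these differences. The median GC content of the longest coding transcript was 41.8% over the 55 genes (32.9% to 59.6%), against 48.6% over all genes tested. Across the 55 genes, which share libraries and are not independent, the difference rose with GC content: Spearman's rho was 0.81 for knockdown against fed cells, 0.57 for knockdown against starved cells and 0.17 for starved against fed cells, where all genes gave 0.20, 0.21 and -0.09. The relation differed between libraries of 1 group: rho of each library's deviation with GC content was -0.69, 0.59 and -0.62 in the starved libraries, 0.43, 0.79 and 0.45 in the knockdown libraries and -0.81, -0.55 and -0.19 in the fed libraries. Of the 27 genes below the median GC content, 10 were lower and none higher in knockdown than in fed cells, with a median difference of -0.42, and of the other 28 genes none was lower and 1 was higher, with a median of 0.01. Between knockdown and starved cells the 27 genes gave 9 lower and 0 higher, and the 28 gave 1 lower and 6 higher. Over all genes 9.23% were lower and 9.27% higher in knockdown than in fed cells. Against starved cells 23.9% of all genes were lower and 22.5% higher. All genes were not split by GC content, so whether these counts are particular to the mitosis genes was not tested. The part of base composition in the results was not tested as a cause. When trends with GC content and length were removed from each library, an alternative chosen after seeing the data, 20 genes were called in knockdown against starved cells (9 higher, 11 lower), 15 in knockdown against fed cells (1 higher, 14 lower) and 21 in starved against fed cells (6 higher, 15 lower). These are 36.4%, 27.3% and 38.2% of the 55, where the same fit called 54%, 29% and 52.9% of all genes, so calls rose over all genes too. CENPE was then at -0.999 against starved cells and -1.26 against fed cells, CENPK at -0.47 and -0.53, and PLK1 and NEK2 at 0.72 and 0.88 against starved cells. PLK1 was then also called higher in knockdown than in fed cells (0.31, adjusted p = 0.0402). INCENP was the one gene of the 11, 16 and 11 to lose its call (0.24, adjusted p = 0.0649, against fed cells).

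**Figure D5:**
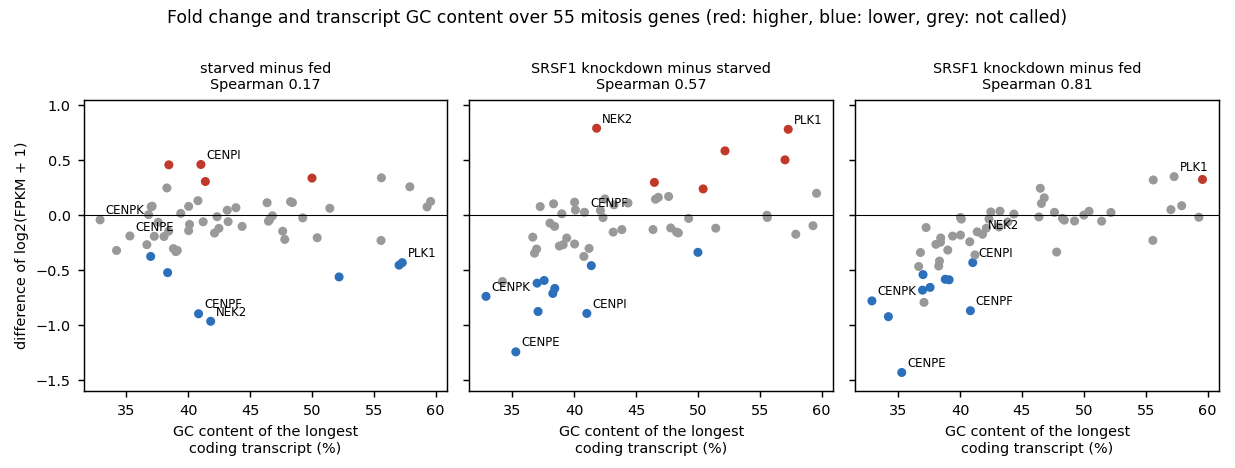
Difference of log2(FPKM + 1) against the GC content (%) of the longest coding transcript for the 55 mitosis genes in the 3 comparisons, red for genes called higher, blue for lower and grey for not called. In knockdown against fed cells the lower genes all lie below the median of 41.8% GC and Spearman's rho is 0.81, against 0.17 for starved against fed cells.

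The motifs can be counted by call. Of the 7 genes lower in starved than in fed cells 6 had a promoter sequence, all 6 with CCAAT and 5 with CHR. Of the 4 higher genes 2 had a sequence, PLK4 with CHR and CENPI with neither motif. The printed part of the CENPI promoter (chrX:101100888-101101087) lies inside the gene, which is listed from 101098188, so the result holds for that start only. Those of PLK1 and KIF11 also lie inside their listed genes. In knockdown against starved cells, 2 of 5 higher genes and 5 of 8 lower genes with a sequence had CHR, and 3 and 4 had CCAAT. For comparison, the shares over all 49 were 71.4% for CHR and 69.4% for CCAAT, as given with the sequences.

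Other genes of mitosis, 128 of them on lists of further subunits and regulators, were read in the same fit. Of the 125 tested, 25 were higher and 7 lower in starved than in fed cells, 11 higher and 27 lower in knockdown than in starved cells, and 14 higher and 5 lower in knockdown than in fed cells. These are 25.6%, 30.4% and 15.2% of the 125, against 42.8%, 46.4% and 18.5% of all genes tested. Subunits and regulators of the anaphase-promoting complex gave 6 lower and 2 higher of 17 in knockdown against starved cells, 47.1% against 46.4% of all genes, with ANAPC4 at -1.02 ± 0.14 (adjusted p = 0.000233), CDC27 at -0.74 ± 0.11 (0.000351), CDC16 at -0.57 ± 0.10 (0.000905) and, among the higher, ANAPC5 at 0.36 ± 0.08 (0.00475). Further kinetochore genes gave 10 higher and 4 lower of 32 on starvation, 43.8% against 42.8% of all genes, with SKA1, of the SKA complex that holds kinetochores to microtubules, at 0.92 ± 0.09 (3.44e-05) and SPC24, the partner of SPC25, at -0.67 ± 0.15 (0.00472). The largest difference on these lists was that of TUBGCP3, a subunit of the gamma-tubulin complex that seeds microtubules. TUBGCP3 had 7.59, 7.65 and 8.59 FPKM in knockdown cells, against 1.47, 1.15 and 1.02 in starved cells (2.02 ± 0.10, adjusted p = 8.54e-07), and it was also lower in starved than in fed cells (-1.95 ± 0.10, 1.06e-06). NEK7, a kinase related to NEK2, was lower in starved than in fed cells as NEK2 was (-1.22 ± 0.16, 0.000206) and higher in knockdown than in starved cells (0.80 ± 0.16, 0.00234).

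Of 21 genes of the MuvB and E2F factors that bind cell cycle promoters, 20 were tested, and 3 were higher and 6 lower in starved than in fed cells, 6 higher and 2 lower in knockdown than in starved cells. These shares, 45% and 40%, lie near the 42.8% and 46.4% of all genes. RBL1, the repressor partner of MuvB also called p107, had 7.82, 6.35 and 8.59 FPKM in knockdown cells, against 2.504, 2.17 and 3.02 in starved cells (1.27 ± 0.12, adjusted p = 2.59e-05), and fell on starvation (-1.28 ± 0.12, 2.76e-05). Its relative RBL2 (p130) moved likewise (0.59 ± 0.09, 0.000536, in knockdown against starved cells; -0.64 ± 0.09, 0.000383, in starved against fed cells). LIN52, a subunit of MuvB itself, rose on starvation (0.94 ± 0.08, adjusted p = 1.04e-05) and NFYB, a subunit of NF-Y, fell (-0.67 ± 0.09, 0.000216). Of 37 genes of DNA replication, which is finished before mitosis starts, 3 were higher and 4 lower in starved than in fed cells, 3 higher and 9 lower in knockdown than in starved cells, and 2 higher and 4 lower in knockdown than in fed cells. These shares of 18.9%, 32.4% and 16.2% compare with 20%, 29.1% and 20% in the 55 mitosis genes, and with 42.8%, 46.4% and 18.5% of all genes tested.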

How the data were processed

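RNA was sequenced from 293T cells, 3 libraries in each of the 3 groups used. The authors deposited normalized counts per gene, a signal that carries no gene length: within a library every value was a whole multiple of 1 step (tolerance 1e-08), so the values are read counts over 1 size factor. No aligner or counter is named (not given in the sources used here), and the submitters' processing notes name mm10. The gene IDs are nevertheless human, and 19801 of 19966 genes overlap the gene of the same ID, on the same chromosome, in GENCODE release 29 (GRCh38).

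FPKM was computed as value per kilobase over the mean total of the values in the 9 libraries, which keeps the deposited scaling. Genes with at least 1 FPKM in 3 libraries (11123 kept, 8843 not) were tested as log2(FPKM + 1), pseudocount 1, with limma 3.58.1 in R 4.3.3 (mean-variance trend, means of 3 groups over 9 libraries, two-sided, Benjamini-Hochberg over all genes kept, threshold 0.05). The deposited values are not counts, so a count test (edgeR 4.0.16, quasi-likelihood) was run only as an alternative, on the whole reads of 8 libraries. Starved 1, whose step of 1.0015 was the nearest to 1, was left out of that test. Its values were whole multiples of its step, as in the other libraries. Code was tested on simulated data. Figures were drawn in matplotlib 3.10.9; tables came from pandas 2.3.3 and numpy 2.4.6 under Python 3.11.15. Other settings were 2 pseudocounts, 2 filters, 4 scalings, limma without trend, the compared groups alone, a replicate block, a stricter threshold, each library left out, and trends on GC content and length removed (loess, span 0.5).

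The members and lists were chosen with earlier results of these data known. Genes named with values are those past the threshold, 11 regulators named whatever their change (CDK1, CCNB1, CCNA2, PLK1, AURKA, AURKB, BUB1, CDC20, MKI67, TOP2A and FOXM1), their partners, and up to 4 genes of largest change on each further list. ANAPC5 was named outside this rule in knockdown against starved cells, as a higher gene of its list, and ANAPC13 (-0.42) was left out. Libraries held 11775367 to 15231651 reads, and counting error was not separated from the spread between libraries. Single genes of the marker list of other cell types that passed the filter are not reported here.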

Additional observations from a re-analysis of the deposited data

How the results depend on the processing

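Of the calls, 4 of 11 in starved against fed cells, 10 of 16 in knockdown against starved cells and 3 of 11 in knockdown against fed cells held in all 23 settings. The number of mitosis genes called moved by over 1.5 times with an adjusted p under 0.01 (4, 10 and 4 in these comparisons), with TPM scaling in knockdown against fed cells (7), and with GC and length trends removed in starved against fed cells (21). Over all genes the stricter threshold called 27.3%, 30.2% and 6.5%, TPM 11.7% and the removal of trends 52.9%. Leaving out each library gave 7 to 15, 11 to 21 and 3 to 15 calls, and medians of -0.10 to -0.01, -0.14 to -0.07 and -0.16 to -0.10. Over all genes those fits called 32.6% to 52.2%, 36.5% to 49.7% and 7.65% to 22.1%. edgeR, run without starved 1, called 11, 11 and 11, where it called 34.8%, 36.7% and 17.4% of all genes. In knockdown against starved cells KIF14, CDC25C, UBE2C, ASPM and SMC2 then missed the threshold (adjusted p = 0.0505 to 0.0859). Limma without starved 1 also called 11 there, but not the same genes. It kept KIF14 and lost KIF2C (0.0653), which edgeR called. CDC25C, UBE2C, ASPM and SMC2 were lost in both, and for these the tool and the missing library cannot be told apart. Over all genes, the share of calls that were higher in starved than in fed cells was 50.3%, but 33.5% with TPM, 36.8% with each library's own total and 58.9% with a filter of 5 FPKM; for knockdown against starved cells it was 48.4%, and 59.5%, 58.1% and 41.1% in those settings.

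With the replicate number as a block 13, 20 and 14 genes were called. These are 23.6%, 36.4% and 25.5% of the 55, where the same fit called 43.4%, 46.7% and 18.4% of all genes. Deviations of same-numbered libraries correlated at 0.35, -0.29 and -0.56 in starved against fed cells, 0.09, 0.62 and 0.37 in knockdown against starved cells and 0.03, -0.29 and -0.42 in knockdown against fed cells, so the numbers were not taken as pairs.

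Signs turned only in genes that were not called, and the cause was not tested. CCNB1 in starved against fed cells was at -0.053 with TPM, -0.0545 with quantile scaling and -0.0438 with each library's own total. FOXM1 in knockdown against starved cells was at 0.0348 with TPM, 0.1035 with quantile scaling, 0.0083 with TMM, 0.0081 with edgeR, 0.0444 with each library's own total, and -0.2327 to 0.1163 with libraries left out. BUB1 in knockdown against fed cells was at -0.012 with TPM and -0.0846 to 0.0978 with libraries left out. AURKB in knockdown against starved cells was at -0.0079 with edgeR and -0.0997 to 0.1153 with libraries left out. MKI67 in knockdown against fed cells was at 0.0244 with edgeR and -0.31 to 0.1544 with libraries left out, and in knockdown against starved cells at -0.43 to 0.0301. CCNA2 in knockdown against starved cells ranged from -0.0536 to 0.1144, and AURKA in starved against fed cells from -0.0664 to 0.0136.

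Groups of 3 libraries limit what can be called: the median SE of a difference was 0.13 on the log2 scale in the 55 genes, and a difference that missed the threshold is not shown to be absent.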
